A study of Homo sapiens with 24 samples.

Results

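The first 30 min of epidermal growth factor (EGF) were compared between MCF10A cells whose miR-671-5p was targeted and cells given a non-targeting oligonucleotide. MCF10A is a line of human mammary epithelial cells, long established in culture and not tumorigenic. The comparison used 8 of the 24 arrays of the series, chosen by their labels: si-control at 0 min, si-control at 30 min, si-miR-671 at 0 min and si-miR-671 at 30 min, with 2 arrays in each group. All cells were carried in medium with EGF, insulin, hydrocortisone, cholera toxin and horse serum, all were transfected with Oligofectamine, and time 0 is the start of the EGF stimulation. The si-miR-671 cells received an oligonucleotide aimed at miR-671-5p and the si-control cells a non-targeting one. The other 16 arrays held another transfection, directed at miR-20a, and 2 later times, 60 and 120 min. Of these, 4 si-miR-20a arrays at 0 and 30 min served as a second comparison.

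Epidermal growth factor binds its receptor, EGFR, and switches on the RAS, RAF, MEK and ERK kinase cascade. Within minutes ERK turns on immediate early genes, which need no new protein: transcription factors of the FOS, JUN, EGR and NR4A families, secreted factors, and phosphatases and RNA-binding proteins that shut the signal down again. A microRNA is a short RNA that guides Argonaute proteins to messenger RNAs that match its seed, which lowers their stability or translation. The labels call the oligonucleotides siRNAs directed at the microRNA, and their sequences are not used here. The microRNA that they were aimed at is given by RefSeq (GRCh38.p14) on the plus strand at chr7:151238449-151238471, and is shown with its seed, bases 2 to 8, in capitals.

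hsa-miR-671-5p: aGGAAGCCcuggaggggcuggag

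The arrays did not measure mature miR-671-5p, so by how much it fell is unknown. Its precursor is hosted by CHPF2, a chondroitin-synthesis gene whose levels were 8.71 and 8.49 in control and 8.36 and 8.38 in si-miR-671 cells at 0 min, a difference of -0.23 ± 0.11 that was not called. The messenger of SMARCB1, a chromatin-remodelling subunit reported as a target of miR-671-5p, read 8.60 and 8.43 in control and 8.74 and 8.74 in si-miR-671 cells at 0 min. FOXM1, a cell-cycle transcription factor also reported as a target, read 7.57 and 7.15 in control against 7.69 and 7.60. All 3 genes lay within 0.30 log2 of control at 0 and at 30 min and none was called. At both times SMARCB1 and FOXM1 lay above control, and CHPF2 below, in every combination of 1 array per group. By limma's unadjusted p under 0.05, 1 of the 3 was higher and 1 lower at 0 min, and 0 and 1 at 30 min. CDR1, also reported as a target, was not analysed here.

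Values are log2 levels per Affymetrix probe set, so a difference of 1 is a doubling. The EGF response is the level at 30 min minus that at 0 min, and the response difference is the si-miR-671 response minus the control response. It equals the si-miR-671 minus control difference at 30 min minus that at 0 min, so a lower start and a higher level at 30 min both enlarge it. Each test was limma's moderated test with the spread pooled over all 24 arrays and Benjamini-Hochberg adjustment over 19460 probe sets, and "called" means an adjusted p under 0.05. Errors are standard errors of that model with 2 arrays per group. Replicates of the 4 groups correlated at 0.982 to 0.990 over probe sets and the array medians were all 6.57 or 6.56. All 10 basal epithelial markers measured lay above the median on every one of the 8 arrays, with means of 11.0 to 11.1, while 6 to 8 of 13 luminal markers lay above it. The labels call the replicates biological but do not say whether they were separate transfections, and since no EGF-free cells were sampled at 30 min, handling and time cannot be told apart from EGF.

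EGF raised immediate early genes, their feedback inhibitors and cytokines in both transfections. In control cells 64 probe sets rose (0.329% of those tested) and 1 fell (0.00514%), 0.334% in all. In si-miR-671 cells 109 rose (0.56%) and 4 fell (0.0206%), 0.581% in all. Of 28 immediate early transcription factors measured, 16 rose in control and 18 in si-miR-671 cells, and of 28 feedback attenuators of the ERK pathway 5 and 11 rose. Of 22 cytokine and NF-kappaB feedback genes, 5 rose in control and 8 in si-miR-671 cells. None of these differences in count was itself tested. Leaving out 1 array gave 38 to 47 calls in control, falling to 38 when 0 min replicate 1 was dropped and to 40 when 30 min replicate 2 was. In si-miR-671 cells it gave 70 to 150 calls, with 70 when 0 min replicate 2 was dropped and 71 when 30 min replicate 1 was. The 150, when 30 min replicate 2 was dropped, were 91 rises and 59 falls, so the small number of falls rests on that array. A fit on the 8 arrays alone gave 25 and 58 calls.

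No single gene had a response difference that passed the test. Of 19460 probe sets 0 were called (0%), with a smallest adjusted p of 0.62, and 446 had an unadjusted p under 0.05, 249 of them larger in si-miR-671 cells. The standard error of a response difference had a median of 0.22. The count was also 0 in the fit on the 8 arrays alone (567 with an unadjusted p under 0.05), under quantile normalization (442), with array weights (682) and with a trend in the prior (332). With the replicate number as a block it was 0 too (478), with a smallest adjusted p of 0.065 by limma. Leaving out 1 array gave 0 or 1 call, a different probe set each time: PAX3 (-1.87, dropping control 0 min replicate 2), OPCML (2.69, dropping control 30 min replicate 2), ANKFN1 (-2.03, dropping si-miR-671 30 min replicate 1) and CSH2 (-4.31, dropping si-miR-671 30 min replicate 2). None of them is an EGF-induced gene by the rule used next.

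The genes that EGF induces nonetheless leaned one way as a group. To choose them by responses on other arrays, the 58 genes called higher at 30 than at 0 min in si-miR-20a cells were taken. In those cells 71 probe sets were called higher (0.365%), of 76 called (0.391%). The spread behind these calls was pooled over all arrays, so the choice was not wholly independent of the 8 arrays. The median response of the 58 genes was 0.87 in control and 1.10 in si-miR-671 cells, and 45 and 51 of the 58 were called higher there. The response was the larger in si-miR-671 cells for 54 of the 58, where 48.7% of all 18417 genes had a response difference above 0 and 51.3% below. The median response difference was 0.30 log2, against -0.0048 over all genes. In 23 of the 58 the unadjusted p was under 0.05 with a larger response, against 1.27% of all genes, and in 0 was it under 0.05 with a smaller one (1.02%). For 38 genes the sign was positive in all 16 combinations of 1 array per group, against 5.72% of all genes (5.88% had a negative sign in all). Genes with a small spread on the 8 arrays may have been favoured by the choice. The shares of all genes by unadjusted p and by sign in all combinations, here and below, are therefore not a like comparison. All 58 genes were read on the same 8 arrays and can move together. Counts over them, here and below, are thus not counts of replicates. The 4 genes with a smaller response were GADD45A, GADD45B, LINC00479 and TNFAIP3. The median of the group lay between 0.24 and 0.36 over those 16 combinations. With the 46 genes that si-miR-20a raised by at least 1.5-fold, 44 were larger in si-miR-671 cells and the median was 0.33.

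**Figure D1:**
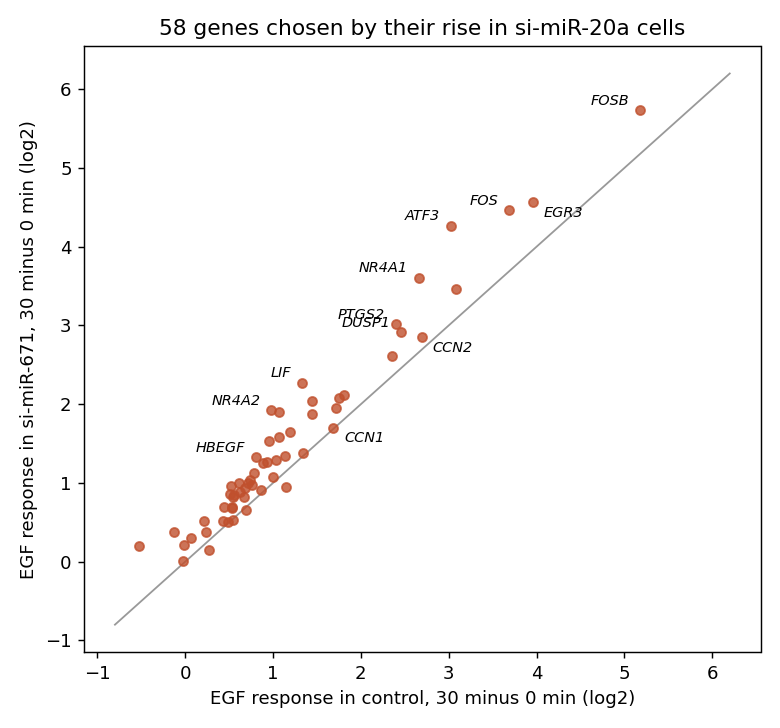
EGF responses (log2 level at 30 min minus that at 0 min) of 58 genes called higher in si-miR-20a cells, in control cells (horizontal axis) and in si-miR-671 cells (vertical axis), each point the difference of means of 2 arrays. The grey line marks equal responses, and 54 of the 58 points lie above it, with the distance of a point from the line its response difference.

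The distance from equal response varied over the group. Across the 58 genes the si-miR-671 response rose by 1.11 per unit of control response (Pearson's r 0.977, a description over genes that share the same 8 arrays). Some genes with large responses lay close to it, among them targets of SRF and YAP, which also answer to the actin skeleton (CCN1, CCN2 and RHOB, named after their values were seen). CCN1, a matrix protein, rose by 1.69 in control and 1.70 in si-miR-671 cells, a difference of 0.02 ± 0.14. CCN2, its relative, rose by 2.70 and 2.85. RHOB, a small GTPase of the actin skeleton, rose by 1.00 and 1.08. The 20 SRF and YAP targets measured had a median response difference of 0.041, and the 20 members of the receptor and kinase cascade 0.027, both with 13 of 20 above 0. In control cells 3 and 0 of these were called higher with EGF, with median responses of 0.12 and 0.017. Most of them thus had little response that could differ, and the 2 medians say little about responding genes.

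**Figure D2:**
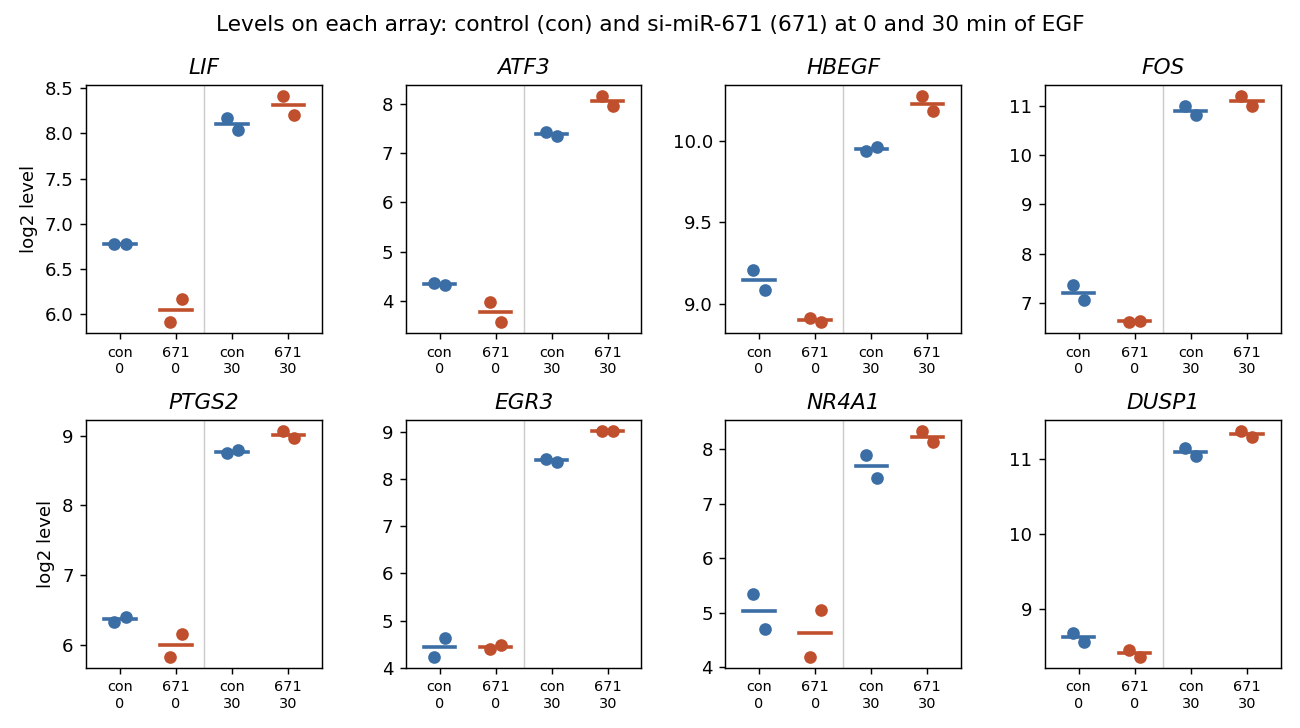
Log2 levels (vertical axes, each with its own range) of 8 EGF-induced genes on the 8 arrays, control (con, blue) and si-miR-671 (red) at 0 and 30 min of EGF, with points for arrays and bars for the mean of 2. LIF, FOS and PTGS2 start lower in si-miR-671 cells, EGR3 differs only at 30 min, and ATF3, HBEGF and DUSP1 differ at both times in opposite directions.

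Among secreted factors, LIF had the smallest p of all 19460 probe sets. LIF is a cytokine of the interleukin-6 family that signals through gp130 and STAT3. Its levels at 0 min were 6.78 and 6.77 in control and 5.91 and 6.16 in si-miR-671 cells. At 30 min they were 8.18 and 8.03 in control and 8.41 and 8.21 in si-miR-671 cells. The groups did not overlap at either time, being lower at the start and slightly higher at 30 min. LIF rose by 1.33 ± 0.11 in control (2.51-fold) and by 2.27 ± 0.11 in si-miR-671 cells (4.84-fold), a response difference of 0.94 ± 0.16 (adjusted p = 0.62, limma, not called). The start accounted for most of it: at 0 min LIF was lower by 0.74 ± 0.11 in si-miR-671 cells (adjusted p = 0.00779, limma), and at 30 min the difference was 0.21 ± 0.11 (adjusted p = 0.65). The call at 0 min was lost without either control array or si-miR-671 replicate 1, with an adjusted p of up to 0.183.

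HBEGF, a membrane-bound ligand of EGFR itself, differed at both times. At 0 min its levels were 9.21 and 9.08 in control and 8.91 and 8.89 in si-miR-671 cells, and at 30 min 9.94 and 9.96 against 10.28 and 10.18. The groups did not overlap at either time, and the order turned round between them. HBEGF rose by 0.80 ± 0.08 in control and by 1.33 ± 0.08 in si-miR-671 cells, and the response difference of 0.53 ± 0.11 was made of -0.25 at 0 min and 0.28 at 30 min, none of these 3 differences being called. Of 8 EGF family ligands measured 6 had a response difference above 0, with a median of 0.13. EREG, epiregulin, had responses of 0.42 and 0.68 and TGFA, transforming growth factor alpha, 0.02 and 0.16, neither called in either transfection. IL6, another gp130 cytokine, was called lower at both times (described with the cytokines).

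ATF3, a bZIP transcription factor induced by growth factors and stress, had the largest response difference among the 58 genes. Its levels at 0 min were 4.37 and 4.34 in control and 3.98 and 3.58 in si-miR-671 cells. At 30 min they were 7.42 and 7.33 in control and 8.15 and 7.96 in si-miR-671 cells. Again the groups were apart at both times with the order turned round. ATF3 rose by 3.02 ± 0.17 in control (8.13-fold) and by 4.27 ± 0.17 in si-miR-671 cells (19.3-fold). The response difference of 1.24 ± 0.24, or 2.37-fold, had an interval of 0.73 to 1.75 and an adjusted p of 0.70, and came from -0.57 ± 0.17 at 0 min and 0.67 ± 0.17 at 30 min. With the replicate number as a block its adjusted p was 0.065.

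FOS, the founding subunit of the AP-1 transcription factor, differed mainly at its start. It read 7.36 and 7.05 in control and 6.62 and 6.63 in si-miR-671 cells at 0 min, a difference of -0.58 ± 0.15 (adjusted p = 0.108, not called). At 30 min it read 10.99 and 10.80 against 11.19 and 10.99, with a difference of 0.19 ± 0.15 and a control array level with a si-miR-671 array. FOS rose by 3.69 ± 0.15 and 4.46 ± 0.15, a response difference of 0.77 ± 0.21. FOSB, its close relative, rose by 5.18 and 5.73, the largest responses of the 58 genes, and its levels at 0 min overlapped between transfections. JUN, the partner of FOS in AP-1, rose by 1.75 and 2.08, with 0.21 ± 0.09 of the 0.33 at 30 min. JUNB rose by 1.04 and 1.29, and FOSL1, a later FOS relative, by 1.14 and 1.34.

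EGR3, a zinc-finger factor of the early growth response family, differed only in its level at 30 min. It read 4.24 and 4.63 in control and 4.41 and 4.48 in si-miR-671 cells at 0 min, which overlapped. At 30 min it read 8.43 and 8.35 against 9.02 and 9.00, which did not. EGR3 rose by 3.96 ± 0.18 and 4.57 ± 0.18, and the difference at 30 min was 0.62 ± 0.18 (adjusted p = 0.196, not called). EGR1, the best known member of the family, rose by 3.08 and 3.46. KLF6, a Krüppel-like factor, rose by 1.19 and 1.64, with 0.27 ± 0.11 of the difference at 30 min and -0.18 ± 0.11 at 0 min.

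The NR4A nuclear receptors, which act without a ligand, did not all lean one way. NR4A1 read 5.35 and 4.71 in control and 4.20 and 5.04 in si-miR-671 cells at 0 min, overlapping, and 7.90 and 7.48 against 8.33 and 8.13 at 30 min. It rose by 2.66 ± 0.24 and 3.61 ± 0.24. NR4A2 rose by 1.92 ± 0.24 in si-miR-671 cells, while its control response of 0.98 ± 0.24 was not called. NR4A3 went the other way, with a response difference of -1.88 ± 0.65 from levels between 1.70 and 4.87, among the lowest on the arrays. It rose by 2.56 ± 0.46 in control, a call lost without any 1 of 3 of the 4 arrays (adjusted p up to 0.341), and its si-miR-671 response of 0.68 ± 0.46 was not called. Of the 28 immediate early transcription factors, 25 had a response difference above 0, 0 were called, and the median was 0.25.

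Several attenuators of the pathway had larger responses in si-miR-671 cells, with none of the response differences called. DUSP1, a phosphatase that inactivates MAP kinases, read 8.69 and 8.57 in control and 8.46 and 8.38 in si-miR-671 cells at 0 min, and 11.14 and 11.04 against 11.37 and 11.29 at 30 min. It rose by 2.46 ± 0.09 and 2.91 ± 0.09, with -0.21 ± 0.09 of the difference at the start and 0.24 ± 0.09 at 30 min. DUSP5 and DUSP6, phosphatases for ERK, split between the 2 patterns. DUSP5 rose by 1.81 and 2.12 with nearly all of the difference at 30 min (0.30 ± 0.13), and DUSP6 rose by 0.74 and 1.04 with nearly all of it at 0 min (-0.26 ± 0.08). IER3, which sustains ERK signalling, rose by 0.55 and 0.84 to the same level at 30 min (10.94 and 10.97 in both transfections) from a lower start in si-miR-671 cells. Leaving out 1 array cost the control call of IER3 in 3 of 4 cases, with an adjusted p of up to 0.0641.

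ZFP36, or tristetraprolin, which speeds the decay of messengers with AU-rich elements, rose by 2.36 ± 0.14 and 2.61 ± 0.14. At 30 min it read 9.11 and 9.05 in control and 9.53 and 9.62 in si-miR-671 cells, while at 0 min it read 6.70 and 6.73 against 7.21 and 6.72, so here the start was not lower. ERRFI1, or MIG6, which blocks the EGFR kinase, rose only past the threshold in si-miR-671 cells, by 1.12 ± 0.13 against a control response of 0.64 ± 0.13. Its levels at 30 min met (9.81 and 9.65 against 9.72 and 9.71), and those at 0 min did not (9.12 and 9.06 against 8.58 and 8.60). SPRY4 and DUSP4, both ERK-pathway inhibitors, had responses of 0.28 and 0.30 in control, not called, and rose by 0.76 and 0.56 in si-miR-671 cells, SPRY4 losing its call without 3 of the 4 arrays in turn (adjusted p up to 0.324). The response differences of ERRFI1, SPRY4 and DUSP4, 0.48 ± 0.19, 0.48 ± 0.20 and 0.27 ± 0.12, were not called. Over the 28 attenuators 22 had a response difference above 0, 0 were called, and the median was 0.14.

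PTGS2 and PTGER4 belong to one pathway and stood on different sides of the split. PTGS2, or cyclooxygenase-2, makes the precursor of prostaglandin E2, and PTGER4 is a receptor for prostaglandin E2. PTGS2 read 6.33 and 6.41 in control and 5.84 and 6.16 in si-miR-671 cells at 0 min, and 8.75 and 8.79 against 9.07 and 8.96 at 30 min. It rose by 2.40 ± 0.12 and 3.01 ± 0.12, with -0.37 ± 0.12 of the difference at 0 min and 0.24 ± 0.12 at 30 min. PTGER4 read 5.96 and 6.05 against 5.90 and 5.88 at 0 min, and 7.54 and 7.35 against 7.96 and 7.91 at 30 min. It rose by 1.44 ± 0.13 and 2.05 ± 0.13, with 0.49 ± 0.13 of the difference at 30 min. A probe set for the pseudogene PTGER4P2-CDK2AP2P2, which resembles PTGER4, gave 0.96 and 1.53, and the pair may share signal and count as 1 gene.

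The start and the level at 30 min were then separated for all 58 genes. At 0 min 47 of them lay below control in si-miR-671 cells (52% of all genes did), with a median of -0.18. At 30 min 49 lay above control (48.1% of all genes), with a median of 0.18. Both were true of 38 (17.3% of all genes), while 9 lay below at both times, 11 above at both times, and 0 above at 0 min and below at 30 min. Of the 54 larger responses, the lower start was the larger part in 24 and the higher level in 30. The 2 comparisons share no array. By the unadjusted p, 20 of the 58 were lower at 0 min (3.99% of all genes) and 17 higher at 30 min (4.62%), with 3 in common, ATF3, HBEGF and DUSP1.

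**Figure D3:**
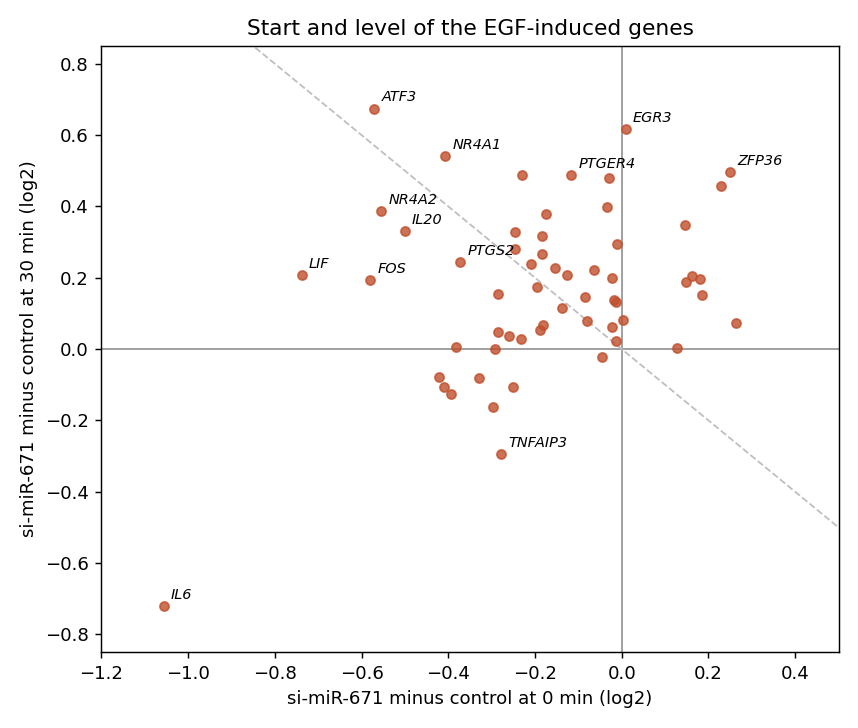
Difference between si-miR-671 and control cells at 0 min (horizontal axis, log2) and at 30 min (vertical axis, log2) for the 58 EGF-induced genes, each point a difference of means of 2 arrays. The dashed line marks equal and opposite differences, points in the upper left area (38 genes) start lower and end higher, and IL6 lies far below control at both times.

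The 17 genes whose lower start alone had an unadjusted p under 0.05 were LIF, IL6, INHBA, PTGS2, NFKBIZ, TNFAIP3, FOS, NR4A2, MAFF, IER3, DUSP6, SGK1, TGIF1, HAS3, ARRDC3, YRDC and the microRNA gene MIR21. TNFAIP3, or A20, an inhibitor of NF-kappaB, was the one of them whose response was not larger in si-miR-671 cells, at 0.55 in control and 0.53. INHBA, which encodes the activin A subunit, read 8.06 and 8.04 in control and 7.54 and 7.79 in si-miR-671 cells at 0 min, and between 8.65 and 8.68 on all 4 arrays at 30 min. Genes with only a higher level at 30 min were EGR3, JUN, FOSL1, KLF6, HES1, NR4A1, DUSP5, ZFP36, TRIB1, EDN1, PTGER4 and its pseudogene, and 2 dim probe sets, KLHL31 and UBTFL1, which had control responses of -0.52 and -0.12. The remaining 24 had neither. These names were chosen after the values were seen.

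Called differences in the 58 genes were few and all downward. At 0 min 3 of the 58 were called lower, LIF, IL6 and SGK1, where 0.54% of probe sets were called (0.226% higher, 0.313% lower). SGK1, a kinase induced by glucocorticoids and growth factors, was lower by 0.39 ± 0.08 (adjusted p = 0.0428, limma), a call lost without any 1 of the 4 arrays (adjusted p up to 0.402). At 30 min 0 of the 58 were called higher by limma, 17 with an unadjusted p under 0.05, and 1, IL6, was called lower, where 0.457% were called (0.19% higher, 0.267% lower). Calls at 0 min fell to 8 and 31 when control replicate 1 or 2 was dropped, and to 4 and 31 for si-miR-671 replicate 1 or 2. Calls at 30 min fell to 4 and 19 when control replicate 1 or 2 was dropped, and to 5 and 77 for si-miR-671 replicate 1 or 2. The fit on the 8 arrays alone called 0 at each time, so calls at single times rest on the spread of the other arrays.

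The mean level of the 58 genes shows the same split array by array. At 0 min it was 7.34 and 7.34 in control and 7.14 and 7.20 in si-miR-671 cells. At 30 min it was 8.54 and 8.50 in control and 8.71 and 8.67 in si-miR-671 cells, without overlap at either time. At 60 min it was 8.83 and 8.81 against 8.82 and 8.84, which overlapped, and at 120 min 8.13 and 8.04 against 8.26 and 8.34. The lead of si-miR-671 cells at 30 min was thus not present in this mean at 60 min.

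**Figure D4:**
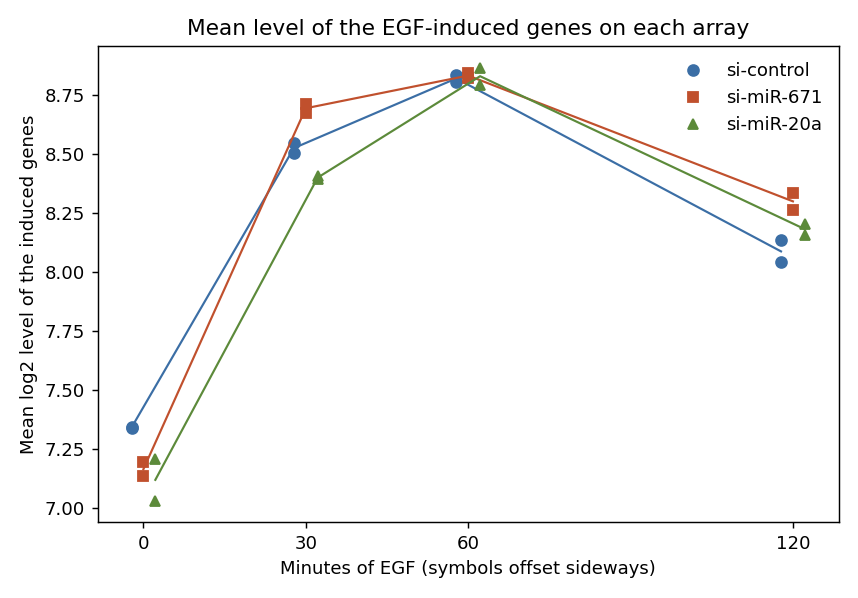
Mean log2 level of the 58 EGF-induced genes (vertical axis) on each of 24 arrays at 0, 30, 60 and 120 min of EGF (horizontal axis), with lines through the mean of 2 arrays per group. The si-miR-671 arrays lie below control at 0 min, above it at 30 min (8.71 and 8.67 against 8.54 and 8.50), beside it at 60 min and above it at 120 min.

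Cytokine and chemokine genes differed by their level and much less by their response. Many of them are NF-kappaB targets that draw in neutrophils and other white cells. Of the 22 measured, 21 lay below control at 0 min and 18 at 30 min, with medians of -0.38 and -0.32 (all genes -0.0075 and -0.0077). At 0 min 4 were called lower, IL6, CXCL3, LIF and CXCL1, and at 30 min 2, IL6 and CXCL1 (0.313% and 0.267% of all probe sets were called lower). Their median response difference was 0.13, with 16 of 22 above 0 and 0 called. The lower level was not particular to si-miR-671 cells. In si-miR-20a cells, read against the same control arrays, 20 of the 22 lay below control and 13 were called lower at each time, with medians of -0.61 at 0 min and -0.49 at 30 min. In that comparison 3.32% of probe sets were called at 0 min (1.83% lower) and 5.1% at 30 min (3.61% lower). IL6 was lower in si-miR-20a cells by 1.07 and 1.13 at 0 and 30 min, and CXCL1 by 1.18 and 1.11, all called. The difference between the si-miR-671 and si-miR-20a levels was not tested.

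**Figure D5:**
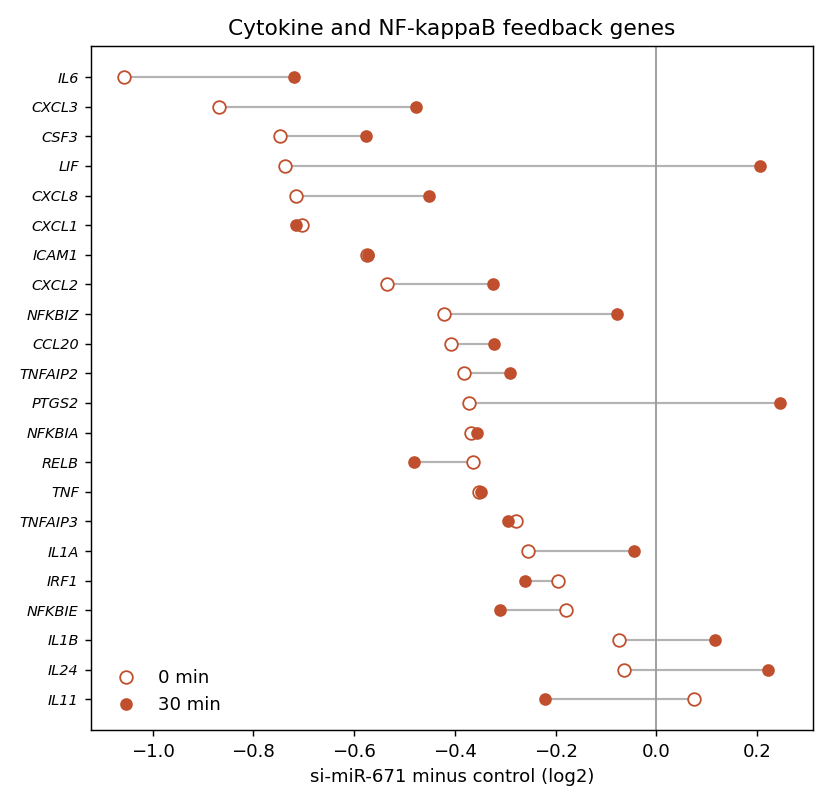
Difference between si-miR-671 and control cells (horizontal axis, log2) at 0 min (open circles) and 30 min (filled circles) for the 22 cytokine and NF-kappaB feedback genes measured, ordered by the difference at 0 min, each a difference of means of 2 arrays. All but IL11 lie below control at 0 min, and by 30 min LIF and PTGS2 have crossed from 0.74 and 0.37 below control to above it, as have IL1B and IL24 from values near 0.

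IL6, interleukin-6, read 6.70 and 6.68 in control and 5.71 and 5.56 in si-miR-671 cells at 0 min, and 7.48 and 7.48 against 6.84 and 6.68 at 30 min. It was lower by 1.06 ± 0.14 at 0 min (2.08-fold, adjusted p = 0.00483, limma) and by 0.72 ± 0.14 at 30 min (1.65-fold, adjusted p = 0.0364). It rose by 0.79 in control and by 1.12 in si-miR-671 cells, so the gap was not closed, and the control call was lost without any 1 of its 4 arrays (adjusted p up to 0.206). CXCL1, a neutrophil chemokine, read 11.21 and 11.13 against 10.43 and 10.50 at 0 min, and 11.14 and 11.17 against 10.43 and 10.44 at 30 min. It was lower by 0.70 ± 0.09 and 0.72 ± 0.09 and had no called response in either transfection. CXCL3, its neighbour in function, was lower by 0.87 ± 0.16 at 0 min, and CXCL8, interleukin-8, by a value of 0.72 ± 0.19 that was not called. Leaving out 1 array kept all of these signs but lost calls, with adjusted p of up to 0.067 for IL6 at 0 min, 0.2 for IL6 at 30 min, 0.0699 and 0.0599 for CXCL1 and 0.31 for CXCL3.

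SOCS3, the feedback inhibitor of the gp130 receptor that IL6 and LIF signal through, read 6.50 and 6.25 in control and 5.29 and 5.35 in si-miR-671 cells at 0 min. At 30 min it read 6.92 and 6.75 against 6.35 and 6.32. It was lower by 1.06 ± 0.15 at 0 min (adjusted p = 0.00581, limma, up to 0.119 without 1 array, lost without control replicate 1 or si-miR-671 replicate 1), and the difference of -0.50 ± 0.15 at 30 min was not called. SOCS3 rose by 1.02 ± 0.15 in si-miR-671 cells, and its control response of 0.46 ± 0.15 was not called. CXCL10, an interferon-induced chemokine, was lower by 1.21 ± 0.21 at 0 min and 1.13 ± 0.21 at 30 min, with adjusted p of 0.0212 and 0.0288 that reached 0.282 and 0.253 without 1 array. Of 30 interferon response genes measured CXCL10 was the one called at either time, and the list had medians of -0.063 and -0.20. Of all probe sets 0.54% and 0.457% were called at 0 and 30 min. In si-miR-20a cells, against the same control arrays, 4 of the 30 were called higher and 1 lower at 0 min. At 30 min 0 were called higher and 2 lower there. In that comparison 3.32% and 5.1% of probe sets were called.

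Genes outside the group chosen as EGF-induced in si-miR-20a cells also differed in level between si-miR-671 and control cells. Not all of them were called at both times. Among the called genes of lower level at 0 min was SULF1, an extracellular sulfatase that trims heparan sulfate, at 7.50 and 7.31 in control and 5.85 and 6.35 in si-miR-671 cells, lower by 1.30 ± 0.23. Its difference at 30 min, -1.08 ± 0.23, missed the threshold (adjusted p = 0.052). SCEL, sciellin, a protein laid down in the cornified envelope, was higher by 1.15 ± 0.21 at 0 min and 1.17 ± 0.21 at 30 min, and TGM1, the transglutaminase that builds that envelope, by 0.69 ± 0.11 and 0.81 ± 0.11. FOXA1, a pioneer factor of luminal epithelium, read 5.50 and 5.30 in control and 6.15 and 6.22 in si-miR-671 cells at 0 min. It rose with EGF to 6.14 and 6.23 and to 6.76 and 6.97, by 0.79 and 0.68, so the gap of 0.78 at 0 min was 0.68 at 30 min. Of 13 luminal markers measured FOXA1 was the 1 called at each time, where 0.226% and 0.19% of all probe sets were called higher. Over that list 8 lay below control at 0 min and 6 at 30 min, with medians of -0.021 and 0.0026. Each of these calls was lost in at least 1 fit that left out 1 array, with adjusted p of up to 0.339. In si-miR-20a cells, against the same control arrays, 1 of the 13 luminal markers was called higher at 0 min and 1 lower at 30 min. There 3.32% and 5.1% of probe sets were called in either direction.

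Of the 28 attenuators of ERK and EGF receptor signalling, 2 were called lower at 0 min (LRIG1 and SOCS3) and 1 at 30 min (DUSP16), with 0 called higher. Of all probe sets 0.313% and 0.267% were called lower at these times. At 0 min 11 of 28 lay above control (3 higher and 9 lower at an unadjusted p under 0.05, median -0.079), and at 30 min 17 lay above (5 higher and 5 lower, median 0.044). In si-miR-20a cells, against the same control arrays, 5 of the 28 were called lower at 0 min and 6 at 30 min, with 1 and 0 higher. There 1.83% and 3.61% of probe sets were called lower. LRIG1, a membrane protein that promotes the breakdown of ERBB receptors, read 8.61 and 8.49 in control and 8.01 and 8.06 in si-miR-671 cells at 0 min, lower by 0.52 ± 0.09 (adjusted p = 0.0257, limma), and it lay lower by a value of 0.38 ± 0.09 at 30 min that was not called. DUSP16, a phosphatase for JNK and p38 kinases, was lower by 0.59 ± 0.09 at 30 min (adjusted p = 0.0131), after a difference of -0.43 ± 0.09 at 0 min that was not called. Both calls were lost without any 1 of their 4 arrays, with adjusted p of up to 0.295 and 0.137. EGFR itself read 10.23 and 10.10 in control and 10.03 and 10.04 in si-miR-671 cells at 0 min, a difference of -0.13 ± 0.12. Of 20 receptors, adaptors and kinases of the cascade measured 0 were called at 0 or 30 min by limma, with 0 at an unadjusted p under 0.05.

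Cell-cycle genes lay slightly higher in si-miR-671 cells at both times. All 24 mitosis genes measured were above control at 0 and at 30 min, with medians of 0.23 and 0.25. Of them 0 were called, while 8 and 15 had an unadjusted p under 0.05. Of all 18417 genes 8833 and 8865 lay above control, and 739 and 850 were higher at that unadjusted p. Of 26 G1/S and DNA replication genes, 23 and 26 were above control, and CDC6, which loads the replicative helicase, was called at 0 min. Of all probe sets 0.226% were called higher at that time. CDC6 read 7.70 and 7.70 in control and 8.19 and 8.18 in si-miR-671 cells, higher by 0.49 ± 0.10, a call lost without any 1 of the 4 arrays (adjusted p up to 0.316). Their median response differences were 0.032 and 0.01. In bulk RNA, more cells in cycle and more of these messengers per cell cannot be told apart.

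Response differences with the smallest p outside the 58 genes came mostly from dim probe sets. PLEK, or pleckstrin, a protein best known from platelets and white cells, read 4.39 and 4.36 in control and 4.39 and 4.32 in si-miR-671 cells at 0 min, and 3.77 and 3.57 against 4.56 and 4.36 at 30 min. It fell by 0.70 ± 0.12 in control, the one called fall there (lost without 1 array in 3 of 4 cases, adjusted p up to 0.198), and its si-miR-671 response of 0.10 ± 0.12 was not called. PLEK was called higher at 30 min, by 0.79 ± 0.12 (adjusted p = 0.0103), a call that did not hold in 3 of the 4 fits without 1 array (up to 0.125). A mean level of 4.76 was the 10th percentile of genes, and PLEK lay below it on all 8 arrays. The negative differences with the smallest p were CCL4, OR10H1, CNGA2, FAM209B and SIRPB2, from -0.76 ± 0.16 for SIRPB2 to -2.04 ± 0.44 for CCL4, all between 1.90 and 6.03 on the 8 arrays. MIR153-2, a microRNA gene, had 1.52 ± 0.30 from levels between 2.78 and 3.93. CYP24A1, the enzyme that breaks down vitamin D, fell by 1.08 ± 0.18 in si-miR-671 cells to 4.84 and 5.56, and its control response of -0.38 ± 0.18 was not called.

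Of 19 microRNA host and primary transcripts measured, 2 were called higher at 30 than at 0 min in control and 4 in si-miR-671 cells. Over all probe sets 0.329% and 0.56% were called higher. The MIR21 probe set read 9.26 and 9.11 in control and 8.83 and 9.04 in si-miR-671 cells at 0 min, and rose by 0.67 and 0.82. Of the MIR23A, MIR27A and MIR24-2 cluster, MIR24-2 rose by 0.95 in control and 1.22 in si-miR-671 cells. MIR23A and MIR27A rose by 0.71 and 1.04 in si-miR-671 cells, with control responses of 0.51 and 0.71 that were not called. An array of total RNA reads the long precursor as well as the short product, so these are not levels of mature microRNAs. The median responses of the 19 were 0.094 in control and 0.098 in si-miR-671 cells, and their median response difference was 0.012. The mature sequences of these 4 genes, from RefSeq (GRCh38.p14) with the seed in capitals, show that none shares the seed of miR-671-5p.

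hsa-miR-21-5p: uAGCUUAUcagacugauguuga
hsa-miR-23a-3p: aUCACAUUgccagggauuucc
hsa-miR-27a-3p: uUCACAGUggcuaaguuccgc
hsa-miR-24-3p: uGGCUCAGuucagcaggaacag

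Promoters of the induced genes were read to show the sites that EGF-driven factors are known to use. RefSeq (GRCh38.p14) gave 43 of the 58, each as 250 bases before and 50 after the start. Motifs were searched on both strands: TATAAA (the TATA box), TGACGTCA (the cAMP response element, bound by CREB and ATF factors), TGANTCA (AP-1), GCGGGGGCG (EGR), and the CArG box of serum response factor. TATAAA stood in 16 of 43 (37.2%), against 12% of all 27305 promoters. TGACGTCA stood in 4 (9.3% against 1.98%), the CArG box in 2 (4.65% against 1.29%), GCGGGGGCG in 2 (4.65% against 5.02%) and TGANTCA in 1 (2.33% against 7.76%). A match describes the letters and says nothing of binding. Bases further upstream than 250 were not searched, so a gene without a match here may hold the site elsewhere.

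The 250 bases before the start are shown for FOS and PTGS2, 2 genes with a lower start, for DUSP1, which differed at both times, and for EGR1, which holds a CArG box. Capitals mark TATAAA in FOS, PTGS2 and DUSP1, TGACGTCA in DUSP1, and 2 CArG boxes in EGR1, and no 2 of these matches overlap. FOS lies at chr14:75278578-75278827 on the plus strand and EGR1 at chr5:138465229-138465478 on the plus strand. PTGS2 lies at chr1:186680424-186680673 and DUSP1 at chr5:172771196-172771445, both on the minus strand.

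FOS: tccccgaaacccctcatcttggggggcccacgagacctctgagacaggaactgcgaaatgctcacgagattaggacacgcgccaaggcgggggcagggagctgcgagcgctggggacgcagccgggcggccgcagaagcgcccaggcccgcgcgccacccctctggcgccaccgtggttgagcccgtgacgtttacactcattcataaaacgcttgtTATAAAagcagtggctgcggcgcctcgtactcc
PTGS2: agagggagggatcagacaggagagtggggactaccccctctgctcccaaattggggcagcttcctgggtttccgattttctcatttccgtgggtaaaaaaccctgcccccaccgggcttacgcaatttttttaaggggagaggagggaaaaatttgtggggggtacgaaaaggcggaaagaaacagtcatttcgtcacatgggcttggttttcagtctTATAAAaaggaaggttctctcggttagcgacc
DUSP1: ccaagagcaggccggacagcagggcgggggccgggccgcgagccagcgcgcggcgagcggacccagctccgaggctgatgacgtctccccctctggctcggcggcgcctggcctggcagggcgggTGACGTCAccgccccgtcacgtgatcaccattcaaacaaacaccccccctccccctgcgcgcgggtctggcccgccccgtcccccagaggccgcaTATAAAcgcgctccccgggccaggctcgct
EGR1: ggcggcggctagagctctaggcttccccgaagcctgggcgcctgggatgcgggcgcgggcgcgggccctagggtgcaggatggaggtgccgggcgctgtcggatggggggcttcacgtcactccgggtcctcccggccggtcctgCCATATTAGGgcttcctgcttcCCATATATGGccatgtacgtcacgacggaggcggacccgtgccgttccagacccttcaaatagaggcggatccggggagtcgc

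The FOS, PTGS2 and DUSP1 matches to TATAAA begin at -33, -32 and -30 from the start, and TGACGTCA in DUSP1 begins at -125. The EGR1 CArG boxes begin at -105 and -83.

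The si-miR-20a arrays showed that a lower start did not always come with a larger response. For the 58 genes the mean level was 7.21 and 7.03 in si-miR-20a cells at 0 min, below control, and 8.41 and 8.39 at 30 min, also below control. The median of their si-miR-20a minus control response differences was 0.0067, with 29 above and 29 below 0, and the genes were chosen from these same si-miR-20a arrays, so this is a description. That value and the si-miR-671 median of 0.30 use the same control arrays. Of all genes 47.2% had a si-miR-20a minus control difference above 0. Across all probe sets, limma called 0 response differences between si-miR-20a and control (557 with an unadjusted p under 0.05) and 0 between si-miR-671 and si-miR-20a (791). LIF read 6.34 and 6.002 in si-miR-20a cells at 0 min and 7.51 and 7.39 at 30 min, lower than control at both times. EGR3 read 4.83 and 4.10 and then 8.01 and 7.87.

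Later arrays show where single genes went. At 60 and 120 min 1592 and 1086 of 19460 probe sets were called between si-miR-671 and control cells, against 105 and 89 at 0 and 30 min. Whether the later values of single genes go with this wider difference was not tested. Response differences at 60 and 120 min use the same 0 min arrays as those at 30 min, so a lower start enters all of them. At 120 min LIF read 8.53 and 8.46 in control and 8.99 and 8.98 in si-miR-671 cells, a response difference of 1.23 ± 0.16 that was called (adjusted p = 0.0162, limma; 0.0668% of probe sets, 0.0462% higher). HBEGF read 10.44 and 10.36 against 10.79 and 10.86 at 60 min and 10.04 and 10.15 against 10.69 and 10.55 at 120 min, called at both times (0.67 ± 0.11 and 0.77 ± 0.11, with 0.0462% of probe sets called at 60 min, 0.0103% higher). EGR3 read 9.39 and 9.26 in control and 9.44 and 9.48 in si-miR-671 cells at 60 min, slightly higher without overlap, and its response difference of 0.12 ± 0.25 was not called. At 120 min it read 7.20 and 7.35 against 8.93 and 8.98, a called response difference of 1.67 ± 0.25. DUSP1 read 8.27 and 8.14 in control and 8.96 and 9.10 in si-miR-671 cells at 120 min, a called response difference of 1.03 ± 0.13. ATF3 had response differences of 0.94 ± 0.24 at 60 min and 1.15 ± 0.24 at 120 min, neither called. Those of FOS were 0.11 ± 0.21 and 0.68 ± 0.21, neither called.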

How the data were processed

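Per the labels, total RNA of 24 MCF10A samples was measured on Human Gene 1.0 ST arrays of Affymetrix. The authors deposited log2 values, 1 per probe set, and per the submitters' processing notes used Affymetrix Expression Console, with no version. How they corrected background, summarised and normalized is not given in the sources used here, and the log base was read from the values, whose maxima lie between 13.0 and 13.2.

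The deposited values were used as they stood, with no further scaling. Of 33297 probe sets, 19460 with exactly 1 gene symbol in GEO's platform annotation were tested, 1754 had several and 12083 were not listed. Where a gene had several probe sets, the one of highest mean level stands for it. limma 3.58.1 (R 4.3.3) fitted 1 mean per group over 24 arrays (12 residual and 2.57 prior degrees of freedom), with eBayes and Benjamini-Hochberg adjustment, tested on simulated data. With 2 arrays against 2 an exact permutation test cannot go below 0.333. Precision is limited by the number of arrays.

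Replicate numbers were not taken to pair the samples, as not every correlation between deviations of same-numbered samples exceeded 0.1. Over the 6 pairs of the 4 groups they lay at 0.012 to 0.38 (median 0.22, 5 above 0.1). Over all 66 pairs they lay at -0.57 to 0.55 (30 above 0.1). The choice matters for the response difference, whose smallest adjusted p by limma was 0.62 without and 0.065 with the replicate number as a block. Named genes followed a rule: the largest called changes with one sign in every combination of arrays, the smallest p where none was called, 38 early-response and microRNA genes always, and called list members. Other names were chosen after values were seen. The comparison, members, rule and 22 gene lists were chosen with earlier results of these data known.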

Additional observations from a re-analysis of the deposited data

Results flagged for a closer look

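5 response differences of named genes were called at later times although none was at 30 min. They are the si-miR-671 minus control EGF response differences of HBEGF at 60 min (0.667) and at 120 min (0.770), DUSP1 at 120 min (1.03), EGR3 at 120 min (1.67) and LIF at 120 min (1.23), each a difference between 2 transfections under the same contrast, tested with limma over 19460 probe sets. All of them use the 0 min arrays of the comparison at 30 min. Far more probe sets differed in level between these transfections at 60 and 120 min (1592 and 1086 called) than at 30 min (89). Groups of 2 arrays are too small for a test of single outlying arrays.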

How the results depend on the processing

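The response difference kept 0 calls under each setting that used all of its arrays, and 0 to 1 without 1 array. The fit on 8 arrays alone gave 0 calls at 0 min, 0 at 30 min, 25 for EGF in control and 58 in si-miR-671 cells, where 105, 89, 65 and 113 were called. At 0 min all probe sets gave 58 calls, probe sets at or above the median level 192, a prior with trend and robust 176, and array weights 461. At 30 min the median filter gave 134 and array weights 149. Leaving out 1 array gave 4 to 31 calls at 0 min, 4 to 77 at 30 min, 38 to 47 for EGF in control, 70 to 150 in si-miR-671 cells, 0 to 4 between the si-miR-671 and si-miR-20a responses and 0 to 2 between si-miR-20a and control. With the replicate number as a block, calls were 0, 100, 85, 62 and 113 for the 5 comparisons, and 1 (ATF3) between the si-miR-671 and si-miR-20a responses. The median response difference of the 58 genes was 0.278 to 0.331 without 1 array and 0.335 for genes raised at least 1.5-fold. The cause of these shifts was not tested.

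Among the named and EGF-induced genes followed singly, all 22 called at 0 min and all 20 called at 30 min lost their call in at least 1 fit without 1 array, against 18 of 49 for EGF in control and 14 of 62 in si-miR-671 cells, and none of them changed sign. Of values never called, IER3 at 30 min turned to -0.0022 with arrays centred on their median, and ranged from -0.0157 to 0.016 without 1 array. Without 1 array the response difference of CCN1 ranged from -0.0844 to 0.117. At 0 min CCN2 ranged from -0.106 to 0.0699, EGR3 from -0.186 to 0.205, DUSP5 from -0.0658 to 0.0433, FOSB from -0.653 to 0.306 and NR4A1 from -0.829 to 0.0147. With 2 arrays per group the median standard error of a response difference was 0.22 log2, and 0 differences of any size passed the adjusted threshold.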

Other observations

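Other gene lists gave small level differences between si-miR-671 and control cells, with little response difference. Of 19 targets of p53, the stress-activated tumour suppressor, 17 lay below control at 0 min (median -0.18, 0 called, 5 with an unadjusted p under 0.05) and 15 at 30 min (median -0.14, 0 called, 2 with an unadjusted p under 0.05). Of 11 heat shock and chaperone genes, 10 lay above control at each time (medians 0.14 and 0.11), with 0 called by limma and 5 and 3 at an unadjusted p under 0.05. Of 18 genes of the small RNA silencing machinery, which loads and uses microRNAs, 11 lay below control at each time (medians -0.031 and -0.039), with 0 called and 1 and 2 at an unadjusted p under 0.05. Over all 18417 genes the medians were -0.0075 and -0.0077, and 9584 and 9552 lay below control. At an unadjusted p under 0.05, 734 and 851 of all genes were lower and 739 and 850 higher. The median response differences of these 3 lists were 0.029, -0.036 and 0.014, with 0 called.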
